A study of Rattus norvegicus with 4 samples.

Results

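Nuclear transcript levels of 9 genes of growth hormone and cytokine signalling were followed in 4 single-nucleus libraries of rat fat. The genes were the kinase Jak2 (ENSRNOG00000059968), the transcription factors Stat5a (ENSRNOG00000019496), Stat5b (ENSRNOG00000019075) and Stat3 (ENSRNOG00000019742), the STAT5-linked genes Cish (ENSRNOG00000029543), Socs2 (ENSRNOG00000008965) and Igf1 (ENSRNOG00000004517), and the inhibitors Socs1 (ENSRNOG00000002568) and Socs3 (ENSRNOG00000002946). They are 9 of the 32883 genes counted. They were taken from a list of symbols that was drawn up with the difference between replicate 2 and replicate 1 of these libraries already known. Levels and ratios for that contrast are therefore given as a description, with no test, and the tests below concern the tissues. The same difference enters the error of those tests.

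The tissues were thoracic aorta perivascular adipose tissue (taPVAT), the fat that wraps the thoracic aorta, and subscapular brown adipose tissue (BAT), each with a replicate 1 and a replicate 2. All animals were naive male Dahl salt-sensitive rats of strain SS/HsdMcwiCrl, a strain whose blood pressure rises on a high-salt diet, aged 16 weeks and housed at 22 °C. No group carried a transgene or received a treatment that the labels name, and about 50 mg of snap-frozen tissue was used per library, with a target of 10000 nuclei. The labels give 2 rats for each tissue but not whether a rat gave both tissues, nor whether a replicate number marks a rat, a day or a run. Spread between the 2 libraries of a tissue is therefore the only error available, and it may be technical.

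Growth hormone, prolactin and many cytokines bind receptors that carry JAK kinases, and JAK2 serves the growth hormone receptor. The activated kinase phosphorylates STAT proteins, which enter the nucleus and switch on target genes. Cish and the Socs genes are such targets, and their products act back on the receptor or the kinase, so their transcripts are commonly read as a record of recent pathway activity. Adipocytes carry the growth hormone receptor, and Igf1, which encodes insulin-like growth factor 1, is a growth hormone target in liver and fat.

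STAT dimers bind a palindrome, TTCNNNGAA, and the 250 bases before the start of each gene were searched for it because Cish and Socs2 stood out among the members. The RefSeq table of rat promoters (build GRCr8, which is not the Rnor_6.0 build of the counts) matched 8 of the 9 members by symbol, all but Socs2. Sequences are printed 5′ to 3′ on the strand of the gene for the promoters of members that held the motif, with each match in capitals.
Cish, chr8:116850719-116850968, plus strand: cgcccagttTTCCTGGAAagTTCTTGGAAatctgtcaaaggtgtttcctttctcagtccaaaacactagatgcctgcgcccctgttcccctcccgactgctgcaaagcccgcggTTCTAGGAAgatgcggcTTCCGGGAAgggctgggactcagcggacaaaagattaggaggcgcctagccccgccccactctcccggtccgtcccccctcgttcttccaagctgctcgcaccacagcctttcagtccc
Socs1, chr10:5389324-5389573, plus strand: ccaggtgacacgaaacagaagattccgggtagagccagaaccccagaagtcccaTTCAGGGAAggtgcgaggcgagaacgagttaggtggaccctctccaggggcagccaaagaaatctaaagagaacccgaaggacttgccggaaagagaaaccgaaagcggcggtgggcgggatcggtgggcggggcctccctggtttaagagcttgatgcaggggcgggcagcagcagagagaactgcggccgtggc

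The Cish promoter held 4 matches, in 2 pairs. TTCCTGGAA began 241 bases and TTCTTGGAA 230 bases upstream of the start, and TTCTAGGAA began 136 bases and TTCCGGGAA 119 bases upstream. Socs1 held 1 match, TTCAGGGAA, beginning 196 bases upstream. The windows of Jak2, Stat5a, Stat5b, Stat3, Igf1 and Socs3 held none of these letters. The motif reads the same on both strands, so 1 search covers both, and none of the matches overlapped. Of 33469 rat promoters in the table, 7.67% held at least 1 match, 0.418% at least 2, and 2 promoters, 0.00598%, at least 4. A match is a run of letters and does not show that a factor binds there.

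The libraries held 63654436 to 158140959 unique molecular identifiers (UMIs), and 12336 to 42979 nuclei in each passed a minimum of 500 genes. Nuclei were placed in classes by counts of marker genes, and class names below mean "-like" by those markers. Adipocyte-like nuclei, defined by at least 5 of 11 markers such as Adipoq and Plin1, made up 65.8% to 73.7% of the kept nuclei, 8569 to 28271 per library. Levels are counts per 1000000 UMIs of a class in a library (CPM). Barcodes shared between any 2 libraries numbered 126 to 424. Replicate 2 of both tissues stood apart from replicate 1 in other genes too: Hba-a1, a globin gene of red blood cells, lay at 104, 513, 81.1 and 420.0 CPM over all nuclei in taPVAT replicates 1 and 2 and BAT replicates 1 and 2. All further sets of 4 values follow this order.

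Cish, whose product CISH blocks STAT5 docking at activated receptors, differed widely between libraries in adipocyte-like nuclei. It lay at 9.97, 153, 16.7 and 168 CPM (1035, 6914, 1952 and 10570 UMIs). Both replicate 2 libraries were high and both replicate 1 libraries low, in either tissue, with no overlap. The ratio of replicate 2 to replicate 1 was 15.3 in taPVAT (95% counting interval 14.3 to 16.4) and 10.1 in BAT (9.58 to 10.6). Counting intervals here and below are exact, cover the sampling of UMIs alone and say nothing of variation between animals.

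Socs2, which encodes a negative regulator of growth hormone signalling, followed the same order. Its levels were 12.99, 141, 16.9 and 221 CPM. The replicate ratio was 10.9 in taPVAT (10.2 to 11.5) and 13.1 in BAT (12.5 to 13.7). Of the 7290 genes at a mean of at least 10 CPM in adipocyte-like nuclei, ranked by the smaller of their replicate ratios in the 2 tissues, Socs2 was number 4 and Cish number 5. This rank uses the contrast that chose the members and is given to place them, not as support.

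Stat5a and Stat5b, the paired factors through which the growth hormone receptor acts, had the opposite order. Stat5b lay at 171, 52.8, 166 and 46.8 CPM, so both replicate 1 libraries were high and nearly level. Its replicate ratio was 0.309 in taPVAT (0.296 to 0.323) and 0.281 in BAT (0.271 to 0.293), a level 3.24-fold and 3.55-fold lower in replicate 2. Stat5a lay at 50.9, 24.96, 68.1 and 21.8 CPM. Its ratio was 0.491 in taPVAT (0.460 to 0.523) and 0.320 in BAT (0.302 to 0.339). The taPVAT value sat at the edge of a 2-fold change and passed to the inner side of it with TMM scaling, at a log2 ratio of -0.92, with nuclei thinned to 1000 UMIs, at -0.88, and without the 5% of nuclei with most UMIs, at -0.99.

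Stat3, which serves the interleukin 6 family of receptors and leptin, did not share this order across the tissues. It lay at 44.0, 45.0, 53.9 and 80.4 CPM, with a replicate ratio of 1.02 in taPVAT (0.971 to 1.08) and 1.49 in BAT (1.44 to 1.55). BAT replicate 2 alone stood high. Jak2 lay at 20.96, 17.8, 27.6 and 19.99 CPM, and its ratios, 0.848 (0.782 to 0.920) and 0.725 (0.679 to 0.774), were both modestly below 1.

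**Figure D1:**
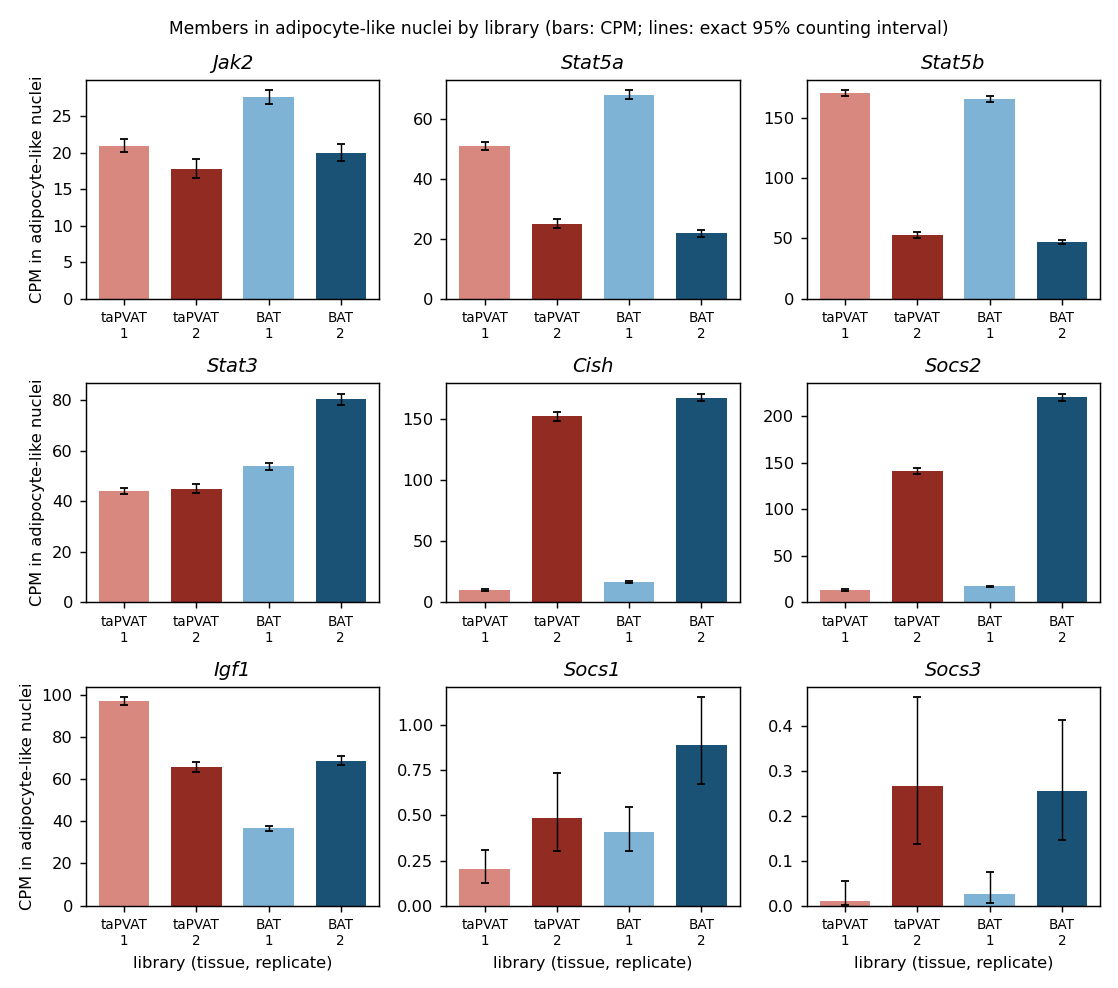
CPM (vertical axes, each from 0) of the 9 members in adipocyte-like nuclei of the 4 libraries (horizontal axes: tissue and replicate). Bars are levels and lines are exact 95% counting intervals; Cish and Socs2 are tall in replicate 2 of both tissues, Stat5a and Stat5b in replicate 1 of both, and Igf1 is highest in taPVAT replicate 1.

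Igf1, summed over adipocyte-like nuclei, went opposite ways in the tissues. It lay at 96.9, 65.6, 36.7 and 68.6 CPM, so replicate 2 was lower than replicate 1 in taPVAT, with a ratio of 0.678 (0.650 to 0.706), and higher in BAT, with a ratio of 1.87 (1.79 to 1.95). The 2 replicate 2 libraries were close together, and the replicate 1 libraries lay on either side of them. With nuclei thinned to 1000 UMIs the log2 ratio in taPVAT moved from -0.56 to -0.10, while that in BAT moved from 0.90 to 0.64. The taPVAT direction was not the same in shallower and deeper nuclei. They were split at each library's own median, 3187 UMIs in taPVAT replicate 1 and 4911 in taPVAT replicate 2. The part of depth in this was not tested. Below the median UMIs of each library Igf1 lay at 106, 130.1, 63.7 and 92.2 CPM, higher in replicate 2 of both tissues, and at or above it at 93.0, 32.8, 24.8 and 57.5 CPM, lower in replicate 2 of taPVAT alone.

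Socs1 and Socs3, inhibitors that interferons and interleukin 6 family cytokines induce, were scarce. Socs1 had 21, 22, 48 and 56 UMIs in all adipocyte-like nuclei, under 1 CPM in each library, and its replicate ratios of 2.40 (1.26 to 4.59) and 2.17 (1.45 to 3.26) rest on those few. Socs3 had 1, 12, 3 and 16 UMIs. Its ratios had counting intervals of 4.07 to 1176 in taPVAT and 2.84 to 53.1 in BAT, so its size of change was not measurable at this depth. More UMIs fell in replicate 2 for both genes once library totals were taken into account.

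Of the 9 members, 7 reached a mean of 10 CPM in adipocyte-like nuclei, all but Socs1 and Socs3. At 2-fold or more in both tissues, 2 members were higher in replicate 2 (Cish and Socs2), beside 2.73% of all genes at that level, and 2 were lower (Stat5a and Stat5b), beside 3.76%. Under the 3 alternatives just named for Stat5a, Stat5b alone was lower. The members were chosen on this contrast, so nothing is read from these counts. The median log2 ratio of all genes was -0.05 in taPVAT and -0.13 in BAT, and TMM scaling moved every ratio by 0.11 and 0.09.

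**Figure D2:**
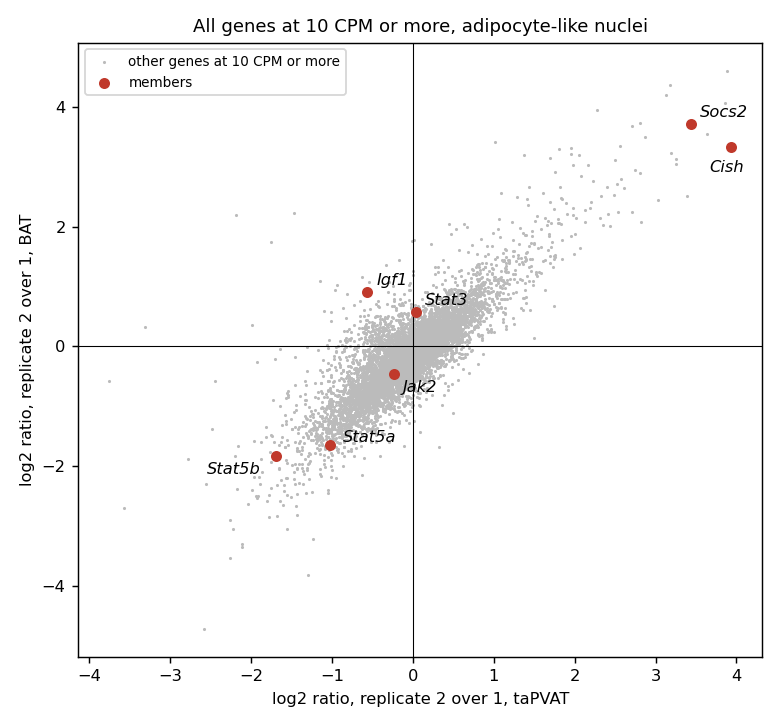
Log2 ratio of CPM, replicate 2 over replicate 1, in taPVAT (horizontal axis) and BAT (vertical axis) for 7290 genes in adipocyte-like nuclei. Grey points are other genes and red points the 7 members at 10 CPM or more; Cish and Socs2 lie at the far upper right, Stat5a and Stat5b at the lower left, and Igf1 in the upper left quadrant.

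The same members were set side by side between the tissues at each replicate number. Since they were chosen on the replicate difference, its size beside that of the tissue difference is not a finding. In adipocyte-like nuclei the taPVAT to BAT ratio of Cish was 0.597 (0.553 to 0.644) between the replicate 1 libraries and 0.909 (0.882 to 0.937) between the replicate 2 libraries. For Socs2 the same ratios were 0.770 and 0.639, for Stat5b 1.03 and 1.13, for Jak2 0.760 and 0.890, and for Stat3 0.816 and 0.560. Stat5a, at 0.747 and 1.15, and Igf1, at 2.64 and 0.957, changed side with the replicate number. No member passed 2-fold in one direction at both numbers, beside 0.384% of all genes for higher and 0.165% for lower in taPVAT.

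**Figure D3:**
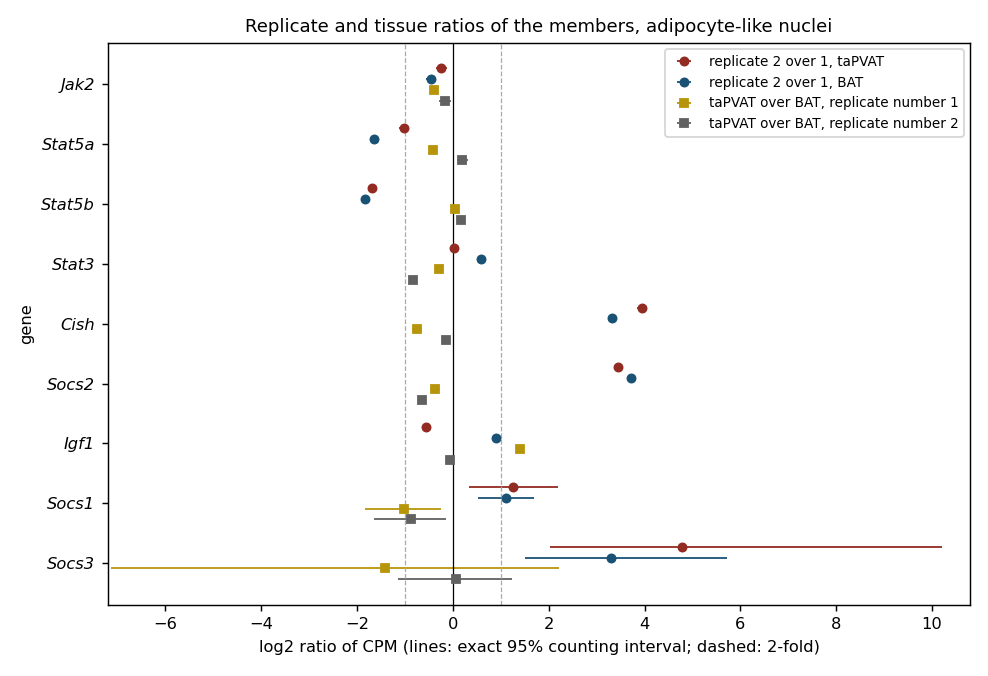
Log2 ratios of CPM (horizontal axis) for each member (vertical axis) in adipocyte-like nuclei. Circles compare replicate 2 with replicate 1 within taPVAT (red) and BAT (blue), and squares compare taPVAT with BAT at replicate number 1 (yellow) and 2 (grey). Lines are exact 95% counting intervals and dashed lines mark 2-fold. For Cish, Socs2 and Stat5b the circles lie outside the dashed lines and the squares between them. The members were chosen on the contrast of the circles.

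The tissue difference was tested on UMIs summed per library with the quasi-likelihood test of edgeR and Benjamini-Hochberg adjustment over all genes. In adipocyte-like nuclei 0 of 9 members passed an adjusted p of 0.05, as did 0 of the 15718 genes tested (0.0%). At an unadjusted p under 0.05 edgeR had 327 genes (2.08%), none of them a member, and DESeq2 called 56 genes, again no member. Cish averaged 81.3 ± 101 CPM in taPVAT and 92.3 ± 107 in BAT (SD, n = 2 each), with a log2 difference of -0.13 ± 1.41 (SE). Socs2 averaged 77.0 ± 90.5 and 119 ± 144 CPM, with a difference of -0.58 ± 1.40. The SD within a tissue is here the replicate difference on which these genes were chosen. That difference is the error of this test, so the absence of a call for them does not show that the tissues are alike. The same holds for Stat5a and Stat5b. Replicate number was not a term of this fit, so any difference that follows it enters the error of every gene. The absence of calls for the other members and for all genes therefore does not show that the tissues are alike either.

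Without 1 library the direction for Cish followed whichever replicate was missing, from a log2 difference of -3.26 without taPVAT replicate 2 to 2.41 without BAT replicate 2, and Socs2 ran from -3.24 to 2.32 under the same omissions. Stat5b averaged 112 ± 83.5 CPM in taPVAT and 106 ± 84.4 in BAT (SD, n = 2 each), a log2 difference of 0.11 ± 0.71 (SE). The members with the smallest standard errors were Jak2, at -0.25 ± 0.28, Stat3, at -0.56 ± 0.31, and Igf1, at 0.64 ± 0.40. Every member had an edgeR adjusted p of 0.999989.

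Over all nuclei edgeR called 0 of 9 members and 0 of 17047 genes (0.0%), with 503 genes at an unadjusted p under 0.05 (2.95%) and 121 called by DESeq2. Over all nuclei the same members as in adipocyte-like nuclei passed the fold between replicates, 2 higher beside 2.51% of genes and 2 lower beside 2.67%, and none passed it between tissues, beside 0.406% and 0.105%. In fibroblast-like nuclei it called 0 of the 7 members tested, beside 0.0986% of 11161 genes (4.26% at an unadjusted p under 0.05), and in vascular endothelial-like nuclei 0 of 7 and 0 of 12590 genes (0.0%), with 233 at an unadjusted p under 0.05 (1.85%) and 13 by DESeq2. Socs1 and Socs3 were too low for the fit in those 2 classes. In fibroblast-like nuclei the log2 difference was -0.80 ± 1.13 (SE) for Cish and -0.48 ± 0.35 for Igf1, and in vascular endothelial-like nuclei -0.68 ± 1.23 for Cish and 0.62 ± 0.38 for Igf1. Single libraries decided the calls in these classes. In fibroblast-like nuclei, without taPVAT replicate 2, Cish passed the edgeR threshold at a log2 difference of -2.87 and Socs2 at -2.27, and in vascular endothelial-like nuclei, without BAT replicate 1, Cish passed it at -1.55, with the lone library of the shortened group assumed to vary like the other. Without BAT replicate 2 the direction of Cish was the opposite, at 1.56 and 1.59. With a library left out the tissues hold unequal replicate numbers, so these differences carry the replicate contrast and are not read as differences between tissues.

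The share of adipocyte-like nuclei with a Cish UMI followed its level. With each nucleus thinned to 1000 UMIs, which left out 12 to 445 shallower nuclei per library, 1.03%, 14.2%, 1.80% and 15.2% held a Cish UMI (unthinned 3.51%, 51.0%, 7.19% and 38.9%). The Wilson 95% intervals ran from 0.919% to 1.16%, 13.5% to 14.9%, 1.65% to 1.97% and 14.7% to 15.7%. UMIs scattered at random at the same mean would give 14.3% in taPVAT replicate 2 and 15.4% in BAT replicate 2, and the ratio of variance to mean was 1.04 and 1.02. In fibroblast-like nuclei thinned the same way the shares were 1.13%, 5.16%, 1.82% and 9.48%, at unthinned median depths of 2589.5, 2356.5, 2547.5 and 2214 UMIs. RNA free in the droplets also scatters at random, so these shares do not tell which nuclei expressed Cish.

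Socs2 was found in 1.35%, 12.4%, 1.53% and 18.5% of thinned adipocyte-like nuclei, with a variance to mean ratio of 1.13 and 1.09 in the replicate 2 libraries. Nuclei with and without a Cish UMI held Socs2 about equally often, 11.9% and 12.5% in taPVAT replicate 2 and 18.5% and 18.5% in BAT replicate 2. Stat5b was found in 14.7%, 5.26%, 14.5% and 4.59%. Within the replicate 2 libraries Stat5b was present in 4.45% of nuclei with a Cish UMI and 5.39% of those without in taPVAT, and in 4.36% and 4.63% in BAT. The Wilson intervals, which cover counting of nuclei alone, overlapped in both. In the replicate 1 libraries Stat5b was more frequent in nuclei with a Cish UMI. The shares with and without one were 19.5% (15.3% to 24.5%) and 14.6% (14.2% to 15.1%) in taPVAT. In BAT they were 19.1% (15.7% to 22.9%) and 14.4% (13.9% to 14.8%). Those intervals did not overlap in either tissue, and no test was made.

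**Figure D4:**
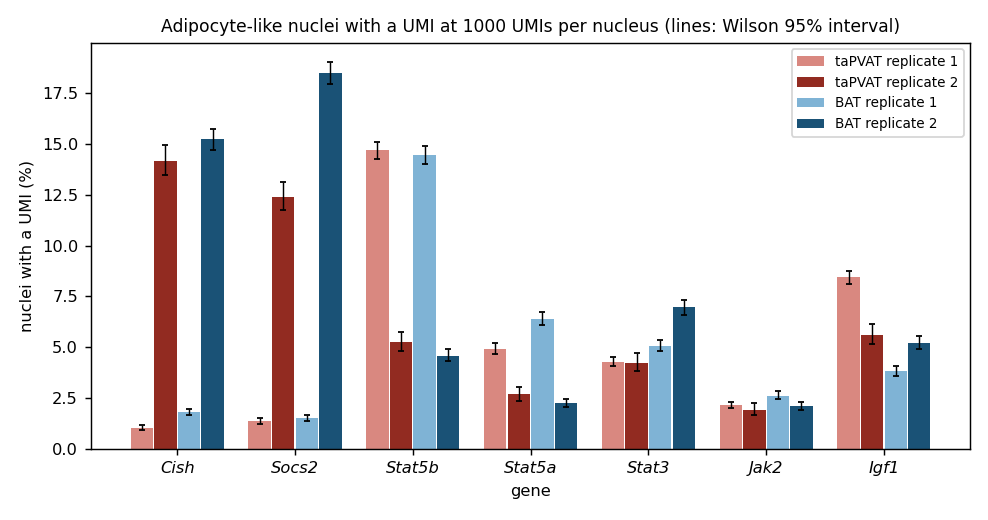
Share of adipocyte-like nuclei with at least 1 UMI of a gene (vertical axis, %) after thinning to 1000 UMIs per nucleus, for 7 members (horizontal axis) and 4 libraries (colours). Lines are Wilson 95% intervals; Cish lies at 1.03% and 1.80% in the replicate 1 libraries and at 14.2% and 15.2% in the replicate 2 libraries, and Stat5b has the opposite order.

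Igf1 was unevenly spread among adipocyte-like nuclei. Its variance to mean ratio after thinning was 1.30, 2.23, 1.87 and 1.87. Nuclei with at least 3 Igf1 UMIs made up 2.90%, 4.62%, 1.39% and 2.94% of the class (820, 396, 354 and 565 nuclei) and held 34.6%, 72.4%, 36.9% and 59.9% of its Igf1 UMIs. This split was made after the values were seen. Their summed adipocyte markers, 15665 to 18000 CPM, were at the level of nuclei with no Igf1 UMI, 15579 to 18421 CPM. Their summed fibroblast markers were 52.7, 70.2, 84.0 and 90.9 CPM against 77.8, 58.9, 49.3 and 70.1 CPM, and their summed mural markers 52.5, 40.8, 67.1 and 62.5 CPM against 56.6, 24.2, 50.2 and 45.7 CPM. Both lists were thus higher in the Igf1-rich nuclei in all libraries but taPVAT replicate 1. Vascular endothelial markers were lower in them in all 4 libraries, at 67.6, 60.4, 45.9 and 64.3 CPM against 84.3, 81.6, 54.6 and 74.1 CPM, and myeloid markers were lower in all but taPVAT replicate 2. Their median depth was 4798, 3665, 3658.5 and 3141 UMIs against 3031, 4982, 4018.5 and 2859. The class gate asked for at least 5 adipocyte markers and at most 1 of any other list. It thus bounds the marker sums on both sides, so these sums cannot tell what the Igf1-rich nuclei are.

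Fewer nuclei with a Socs2 UMI than without one held Igf1 in the replicate 2 libraries. After thinning the shares were 3.48% (Wilson interval 2.54% to 4.77%) and 5.92% (5.41% to 6.48%) in taPVAT, and 2.75% (2.26% to 3.34%) and 5.77% (5.42% to 6.15%) in BAT. The replicate 1 libraries did not share this clearly. The shares there were 10.3% (7.66% to 13.8%) and 8.42% (8.09% to 8.75%) in taPVAT. In BAT they were 2.59% (1.41% to 4.70%) and 3.84% (3.61% to 4.08%), and the intervals overlapped in both tissues. The Igf1-rich nuclei of replicate 2 also differed in other members. Socs2 lay at 87.1 CPM in them against 145 CPM in nuclei with no Igf1 UMI in taPVAT replicate 2, and at 131 against 228 CPM in BAT replicate 2. Stat5b went the other way, at 95.8 against 49.2 CPM and 99.7 against 42.3 CPM. Stat3 was higher in them in all 4 libraries, at 53.1 against 44.1 CPM, 80.5 against 42.7, 129 against 50.7 and 128 against 77.0. Cish, at 199.7 against 149 CPM and 178 against 166 CPM in replicate 2, did not share the order of Socs2. Nuclei of a library are not replicates, so these are levels within each library with no test, and the part of depth and of the other classes' markers in them was not tested.

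Adipocyte RNA was present in every other class. The median adipocyte marker reached 55.8% to 82.2% of the level in adipocyte-like nuclei in fibroblast-, vascular endothelial-, mural-, myeloid- and T or NK lymphocyte-like nuclei. Cish in the replicate 2 libraries reached 53.8% to 83.7% of the adipocyte value in the same classes, and in the replicate 1 libraries 54.4% to 119%. It was above the marker median in fibroblast-, vascular endothelial- and T or NK lymphocyte-like nuclei of both replicate 1 libraries. In replicate 2 Cish was above that median only in BAT, at 79.7% against 72.7% in fibroblast- and 83.7% against 73.4% in T or NK lymphocyte-like nuclei. How much of the Cish in these classes is adipocyte RNA was not tested, and its level there is not read as expression. It lay at 10.5, 82.2, 15.1 and 134 CPM in fibroblast-like nuclei and at 8.80, 88.1, 19.8 and 141 CPM in T or NK lymphocyte-like nuclei. In the latter, 10 of 50 nuclei held a Cish UMI in taPVAT replicate 2 and 17 of 73 in BAT replicate 2, at median depths of 1913 and 1566 UMIs. In adipocyte-like nuclei the shares were 51.0% and 38.9% at 4911 and 2870 UMIs.

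Cish and Socs2 were 2-fold or more higher in replicate 2 of both tissues in each of those 5 classes, beside 1.96% of genes in fibroblast-, 2.56% in vascular endothelial-, 1.44% in mural-, 2.55% in myeloid- and 4.14% in T or NK lymphocyte-like nuclei. The median share of mitochondrial UMIs was also higher in replicate 2 of both tissues in these classes, at 9.73%, 14.3%, 11.4% and 14.8% in fibroblast-, 10.6%, 15.9%, 12.9% and 14.0% in vascular endothelial- and 11.1%, 17.6%, 12.5% and 17.4% in myeloid-like nuclei, and its part in these ratios was not tested. Stat5a alone was lower to that degree in fibroblast-, mural- and T or NK lymphocyte-like nuclei, beside 2.11%, 2.28% and 4.39% of genes, and no member was in vascular endothelial- or myeloid-like nuclei, beside 2.39% and 2.78%. Socs2 exceeded its adipocyte level in 3 of these classes in replicate 1 of taPVAT and BAT, at 215% and 170% in vascular endothelial-, 157% and 174% in fibroblast- and 147% and 134% in T or NK lymphocyte-like nuclei. In replicate 2 it was below the adipocyte level in all 5 classes, at 47.4% to 88.5%, where the median adipocyte marker stood at 55.8% to 78.5%. As for Cish, the part of adipocyte RNA was not tested, and Socs2 in replicate 2 of these classes is not read as expression. In B lymphocyte-like nuclei, 26 to 72 per library, Cish had 0 UMIs in taPVAT replicate 1. A floor of 3 UMIs, which is not the exact interval used elsewhere, stands at 17.5 CPM in that library. In that class Socs2 was higher in replicate 2 of both tissues, beside 5.13% of genes, and Stat5a and Igf1 lower, beside 6.55%, but from 0 to 12 UMIs per library.

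No member was 2-fold higher, or lower, in taPVAT at both replicate numbers in any of these classes. The shares of all genes that were higher and lower were 1.37% and 0.17% in fibroblast-, 0.334% and 0.0742% in vascular endothelial-, 0.36% and 0.583% in mural-, 0.469% and 0.409% in myeloid-, 1.01% and 1.13% in T or NK lymphocyte- and 2.94% and 4.09% in B lymphocyte-like nuclei.

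Igf1, Stat3, Jak2 and Stat5b were above the adipocyte level in particular classes. Igf1 was highest in fibroblast-like nuclei, at 253, 433, 437 and 491 CPM, followed by mural-like nuclei, at 231, 202, 230 and 120 CPM, and the 2 classes came close in taPVAT replicate 1. Stat3 in fibroblast-like nuclei lay at 91.6, 228, 134 and 259 CPM, with replicate ratios of 2.49 (2.20 to 2.83) and 1.94 (1.73 to 2.17). Both replicate 2 libraries were thus high for Stat3 in fibroblast-like nuclei, and in vascular endothelial-like nuclei it was 1.77-fold and 1.70-fold higher in replicate 2. The median adipocyte marker in fibroblast-like nuclei stood at 76.9%, 55.8%, 73.6% and 72.7% of its adipocyte level. The part of adipocyte RNA in the Stat3 ratios was not tested.

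Jak2 was highest in T or NK lymphocyte-like nuclei in replicate 2, at 142 and 109 CPM, and lay between 66.0 and 77.4 CPM in myeloid-like nuclei of all 4 libraries. Stat5b in T or NK lymphocyte-like nuclei lay at 255, 224, 310 and 250 CPM. Its replicate ratios there, 0.877 (0.585 to 1.28) and 0.807 (0.578 to 1.11), had intervals that included 1, whereas those of adipocyte-like nuclei did not come near it. Stat5b there stood at 149% and 186% of its adipocyte level in replicate 1. In replicate 2, where the adipocyte level was lower, it stood at 424% and 535%. Whether the ratio differs between these classes was not tested, as no test of the replicate contrast was made.

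**Figure D5:**
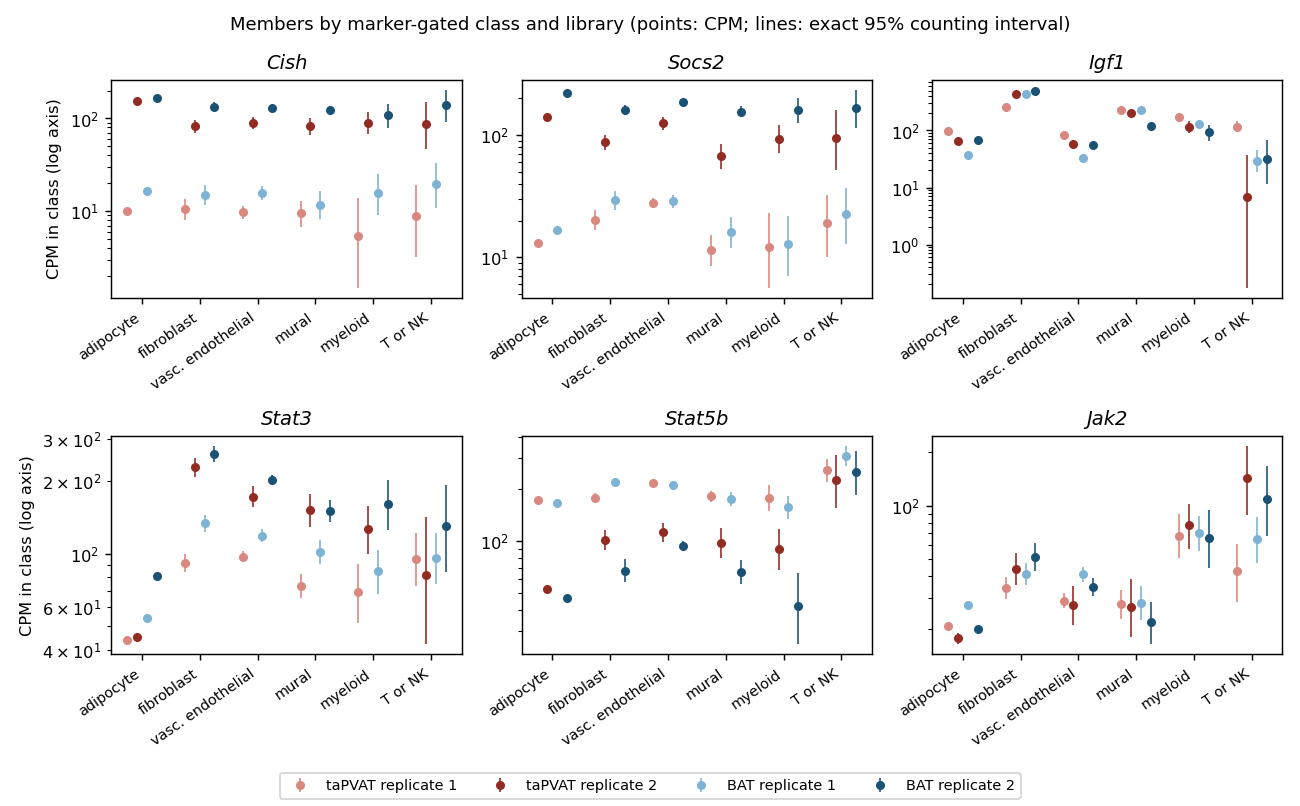
CPM on a log axis (vertical) of 6 members in 6 marker-gated classes (horizontal) and 4 libraries (colours), with exact 95% counting intervals; B lymphocyte-like nuclei are not drawn. Cish has the same order of libraries in every class, Igf1 is highest in fibroblast-like nuclei, and Stat5b in T or NK lymphocyte-like nuclei stays between 224 and 310 CPM.

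Other genes of the pathway were taken as lists and described in adipocyte-like nuclei at the same fold, beside the background of 2.73% and 3.76% given above. Of 23 receptor genes 10 reached 10 CPM, with 0 higher and 1 lower in replicate 2 of both tissues. The exception was Il13ra1, an interleukin 13 receptor, at 22.4, 7.24, 33.1 and 10.9 CPM. Ghr, the growth hormone receptor, had replicate ratios of 0.976 and 0.979. Of 5 other JAK and STAT genes at 10 CPM none passed 2-fold in both tissues, but the list had a median log2 ratio of -0.67 and -1.02, against -0.05 and -0.13 for all genes.

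Of 12 other inhibitors at 10 CPM, 1 was higher, Ptpn1, which encodes the phosphatase PTP1B that acts on JAK2 and the insulin receptor. It lay at 57.9, 312, 70.5 and 283 CPM, with both replicate 2 libraries high. None of 4 other STAT5-linked targets passed the fold in both tissues, and Bcl6, a gene that STAT5 represses, lay at 402, 423, 333 and 518 CPM. Of 4 STAT3-linked genes 1 was higher, Myc, at 3.10, 15.4, 5.78 and 25.6 CPM. In the insulin and IGF list of 8, Igfbp7 and Irs1 were higher and Igfbp4 lower, with Irs1 at 513, 1204, 442 and 1340 CPM.

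In the edgeR tissue comparison 0 genes of each of these lists had an adjusted p under 0.05, beside 0.0% of all genes. At an unadjusted p under 0.05 there were 2 insulin and IGF genes, both under 10 CPM. Among list genes at 10 CPM or more the smallest edgeR p was 0.126, for Pim1, a kinase gene that STAT5 induces, with a log2 difference of 0.60 ± 0.34 (SE) and an edgeR adjusted p of 0.999989.

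Cish was most like Dcun1d3 across libraries, with a Pearson correlation of 0.975 of log2(CPM + 1), centred per class, over 28 points (7 classes in 4 libraries) and 8486 genes. Ptpn1 (0.975), Tob1 (0.972), Net1 (0.971) and Fam13a (0.970) came next. Among the members Socs2 stood at 0.868, Stat3 at 0.57, Jak2 at -0.11, Igf1 at -0.45, Stat5a at -0.71 and Stat5b at -0.89. These member values largely restate the replicate contrast on which the members were chosen, so nothing is read from them. The points share libraries and adipocyte background RNA, so these values describe the same 4 libraries 7 times over. Dcun1d3 lay at 95.4, 550, 127 and 833 CPM in adipocyte-like nuclei.

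Several other measures moved with the replicate number. Pparg, a master regulator of adipocytes, lay at 3420, 5618, 3148 and 6631 CPM in adipocyte-like nuclei, and Ucp1, the uncoupling protein of brown fat, at 948, 460, 1550 and 660 CPM. The erythroid or platelet markers summed to 120, 610, 92.5 and 549 CPM, with 5 or 6 of 6 detected and Ppbp at 0 in taPVAT replicate 2 and BAT replicate 1. The clock gene Npas2 lay at 97.3, 8.19, 45.1 and 6.93 CPM, with 2 of 13 clock genes higher and 2 lower at the fold used above. Of 9 immediate early genes 3 were higher, with a median log2 ratio of -0.05 in taPVAT and 1.85 in BAT. Fos, Fosb, Egr1, Jun and Btg2 did not follow the replicate number, being lower in replicate 2 of taPVAT and higher in that of BAT. Of 6 glucocorticoid-linked genes 1 was higher (Klf9) and 1 lower (Pdk4). Beside these counts, 2.73% of all genes were higher and 3.76% lower. Median depth of adipocyte-like nuclei was 3187, 4911, 4015 and 2870 UMIs and their median mitochondrial share 7.003%, 6.22%, 6.66% and 9.77%, and neither followed the replicate number in both tissues. Cish in the shallower nuclei of each library lay at 12.3, 163, 20.5 and 169 CPM, and in the deeper ones at 9.02, 148, 15.0 and 167 CPM. The part of the other genes in the Cish and Stat5 pattern was not tested.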

How the data were processed

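Nuclei of 2 taPVAT and 2 BAT libraries were profiled with a 3′ droplet kit. The deposited values are raw UMI counts per gene and barcode, made by the authors with Cell Ranger 7.1.0, per the file headers, on build Rnor_6.0, per the submitters' processing notes. No source used here states the annotation release or intron handling, and overlapping genes are uncertain. Every deposited barcode had at least 500 UMIs.

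The members and lists were chosen with earlier results of these data known, and the gate levels were set on the data. Nuclei with at least 500 genes were classed by markers. A non-adipocyte class needed at least 3 of its list, more than of any other non-adipocyte list, with any number of adipocyte markers. The adipocyte class needed at least 5 adipocyte markers and at most 1 of any other list. Non-adipocyte classes could hold more adipocyte markers than their own, as in myeloid-like nuclei of taPVAT replicate 1, with medians of 7 and 3. Nuclei with 2 non-adipocyte lists at 3 or more (1705) were left out, and no doublet caller was run. Counts were summed per library and class. edgeR 4.0.16 (TMM, filterByExpr, R 4.3.3) compared the tissues, with DESeq2 1.42.0 as an alternative. The edgeR test reports no SE, so the SE given is the absolute log2 difference over the square root of its F statistic. The script was first run on simulated data with the same dispersion for all genes and no replicate effect. That run does not show how the fit performs on libraries that differ by replicate number. Ratios are of CPM with no pseudocount. From each list up to 3 genes at 10 CPM were eligible to be named, those with the largest mean replicate ratio of equal sign in both tissues, with the smallest edgeR p and the 5 genes most like Cish. Ghr was named for its role, and Hba-a1, Pparg and Ucp1 because they move with the replicate number. Fos, Fosb, Egr1, Jun and Btg2 were named because they went opposite ways in the tissues. All of these were chosen with values seen. Results for 1 gene and 1 list of the pathway are not reported here.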

Additional observations from a re-analysis of the deposited data

Results flagged for a closer look

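Some members went opposite ways in 2 comparisons of the same kind, with both counting intervals clear of 1. Igf1, replicate 2 over replicate 1, was 0.777 in taPVAT and 1.53 in BAT over all nuclei, 0.678 and 1.87 in adipocyte-like nuclei, and 0.701 and 1.72 in vascular endothelial-like nuclei. In adipocyte-like nuclei below the median UMIs of their library Igf1 was higher in replicate 2 of both tissues. It lay there at 130.1 CPM against 106 in taPVAT and 92.2 against 63.7 in BAT. The taPVAT direction was thus not the same in all adipocyte-like nuclei, and the part of depth in it was not tested. Igf1, taPVAT over BAT, was 1.86 between the replicate 1 libraries and 0.943 between the replicate 2 libraries over all nuclei.

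Stat5a, taPVAT over BAT, was 0.734 between the replicate 1 libraries and 1.12 between the replicate 2 libraries over all nuclei, 0.747 and 1.15 in adipocyte-like nuclei, and 0.744 and 1.40 in vascular endothelial-like nuclei. Stat5b, taPVAT over BAT, was 0.816 and 1.51 in fibroblast-like nuclei. With 1 library on each side the difference between the 2 ratios was not tested in any of these.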

How the results depend on the processing

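Genes called between the tissues, in all, adipocyte-like, fibroblast-like and vascular endothelial-like nuclei in turn, numbered 0, 0, 11 and 0. With DESeq2 they numbered 121, 56, 78 and 13, and with no filter on low counts 56, 35, 225 and 69. Leaving out 1 library gave 0 to 40, 0 to 73, 27 to 165 and 1 to 87. In fibroblast-like nuclei at least 1000 genes per nucleus gave 6 and a stricter gate 5. With replicate number as a block (pairing) they numbered 157, 447, 310 and 61. Same-numbered libraries deviated together (r = 0.61 in adipocyte-like nuclei). There are only 2 pairs, and the labels do not say what same-numbered libraries have in common. No member was called with the block, and Igf1 in adipocyte-like nuclei came nearest, at an edgeR adjusted p of 0.0504 (0.0504 to 0.999994 over its alternatives). The cause of these changes was not tested.

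Of 99 recomputed tissue differences of members in adipocyte-like nuclei, 10 reversed, all when 1 library was left out. They were Stat5a at 0.18 without taPVAT replicate 2 and 0.73 without BAT replicate 1; Stat5b at -0.94 without taPVAT replicate 1 and -0.52 without BAT replicate 2; Cish at 0.74 and 2.41, Socs2 at 0.26 and 2.32, and Socs3 at 1.06 and 2.21 under those last omissions (log2). Over all single omissions they ranged from -0.78 to 0.73, -0.94 to 1.17, -3.26 to 2.41, -3.24 to 2.32 and -3.60 to 2.21. Replicate ratios kept their direction in 107 recomputed values, 23 of which left their counting interval. Depth limits Socs1 and Socs3.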
